A study of Mus musculus with 54 samples.

Results

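Kap, the gene of kidney androgen-regulated protein, was described across mouse kidney libraries that differed in dissociation, storage, cell or nucleus preparation, strain and sex. It is 1 gene of the 33126 listed in the series. It was chosen because measured values put it among abundant transcripts of the proximal tubule and among those seen in barcodes of other cell types. Its levels by cell type are therefore given as a description with no test. Differences between conditions were tested within a cell type. Whether these differed between cell types was tested after the data were seen, so those values are no independent support. The series held 39 10x libraries, counted in unique molecular identifiers (UMIs) so that copies of 1 captured transcript count once, and 15 bulk RNA-seq libraries, with 3 libraries in each of 18 conditions.

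Male AFAPIL.1DEL C57BL/6J mice aged 19 weeks and of 1 litter gave suspensions that were cold-dissociated with a bacterial protease or warm-dissociated at body temperature. These suspensions were freshly profiled, methanol-fixed and stored for 3 months, or cryopreserved for 6 weeks. Their leftover cells gave the bulk libraries. Untreated male Balb/c mice aged 18 weeks and of 1 litter gave cold-dissociated fresh cells, nuclei by SN_FANS_3x500g (nuclei washed by 3 spins at 500 g, then sorted) and bulk libraries of intact kidney. Untreated female Balb/c mice aged 15 weeks, previously breeders, gave cold-dissociated fresh cells, cells cryopreserved for 2 weeks, nuclei by SN_FANS_3x500g, SN_FANS_1x2000g (1 spin at 2000 g, then sorted) and SN_sucrose (a sucrose gradient in place of sorting), and bulk libraries of intact kidney and of cold suspension. Both male experiments used 10x chemistry version 2 and the female one version 3. Strain, sex, age, chemistry and batch therefore cannot be told apart between the 3 experiments.

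The proximal tubule reabsorbs most of what the glomerulus filters, in 3 segments of which the last, S3, runs straight into the outer medulla. Kap encodes a small secreted protein that proximal tubule cells make in large amounts. It is a textbook example of an androgen-regulated gene in the mouse kidney, and its androgen and hormone responses are known to differ by segment. Transcripts this abundant also leak from damaged cells and enter droplets that hold another cell or nucleus, where they are called ambient RNA.

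In the GENCODE annotation of GRCm38, Kap (ENSMUSG00000032758.4) lies on the minus strand of chromosome 6, from 133849851 to 133853762, with 2 transcripts of 4 exons each. The RefSeq promoter window of the gene (GRCm38.p6) holds TATAAA once, starting 31 bases before the RefSeq start, and the stretch around it is shown as the sequence just before that start. The 28 bases at chr6:133853682-133853709, minus strand, with the motif in capitals, lie before the start of Kap-202 and inside the first exon of the longer Kap-201.
Kap TATAAA stretch: agtacaggatgTATAAAagcccaggagg
TATAAA or its reverse complement was found in 13.6% of the 32851 promoter windows of the same length. AGAACA, the core letters of many androgen response elements, searched on both strands, was not in the 300 bases of the Kap window and was in 18.97% of all windows. Letters in a window are a description and show no binding.

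The cell libraries held 983522 to 27869324 UMIs, the nuclei libraries 7629138 to 35170947 UMIs and the bulk libraries 2326998 to 31093949 counted reads. Barcodes were gated by marker genes, without Kap, into 11 classes. Of 175959 barcodes, 45822 were gated as proximal tubule (at least 3 of 18 markers detected, and a share of the list at least 2 times that of the next class), and 11965 as endothelial. Between 14.9% and 65.6% of the barcodes of a library stayed ungated. Proximal tubule-gated barcodes had a UMI from every marker listed in each condition that kept at least 10 of them a library. Endothelial-gated barcodes had a median of 3 to 8 of 10 endothelial markers. In cryopreserved C57BL/6J suspensions only 1 barcode of all 6 libraries was gated as proximal tubule. Of 741 pairs of 10x libraries, 503 shared barcode sequences, at most 101 or 2.05% of the smaller library. Libraries of a group came from the kidneys of different mice.

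In bulk libraries, Kap was highest in intact male Balb/c kidney, with 3708, 4410 and 4651 CPM (counts scaled to the library's total). Intact female Balb/c kidney held 1324, 1160 and 1326 CPM, below every male library. Ranked by TPM, which scales counts to gene length as well, Kap was the 3rd or 4th gene of the male intact libraries and the 7th of the female ones. The level was 3.91 times as high in males (log2 fold change 1.97, SE 0.12, adjusted p = 7.0e-07), in a comparison that called 52.1% of all 16338 genes tested. Male and female intact kidneys also differed in library preparation (ribosomal RNA depletion against poly(A) selection), and its part in the difference was not tested.

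All 11 of 11 androgen-responsive kidney genes listed rose in male against female intact kidney (median log2 fold change 3.88, against -0.03 over all genes). The list was chosen with earlier results of these data known, so this count is no independent support. Slco1a1, an organic anion transporter, rose by 14.26, Cyp2j13, a cytochrome P450, by 9.11 and Acsm3, an acyl-CoA synthetase, by 7.02. Kap, with its difference of 1.97, lay below the median of this list. Of 6 S3 segment markers, 4 rose and 1 fell, led by the amino acid transporter Slc7a13 at 10.51. Of 6 markers of the S1 and S2 segments, 2 rose and none fell (median -0.08). Of 20 abundant proximal tubule transcripts, 10 rose and 5 fell, with the steroid dehydrogenase Akr1c21 at 5.73 and the glutathione transferase Gsta2 at -4.09. Of 18 proximal tubule markers 9 rose and 1 fell (median 0.39), of 7 thick ascending limb markers 6 fell and none rose (median -0.62), and of 10 endothelial markers 3 rose and 1 fell (median 0.01). All these counts stand beside 52.1% of all 16338 genes called in either direction, so a count near that share is not particular to its list. The part of these changes in the Kap difference was not tested.

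**Figure D1:**
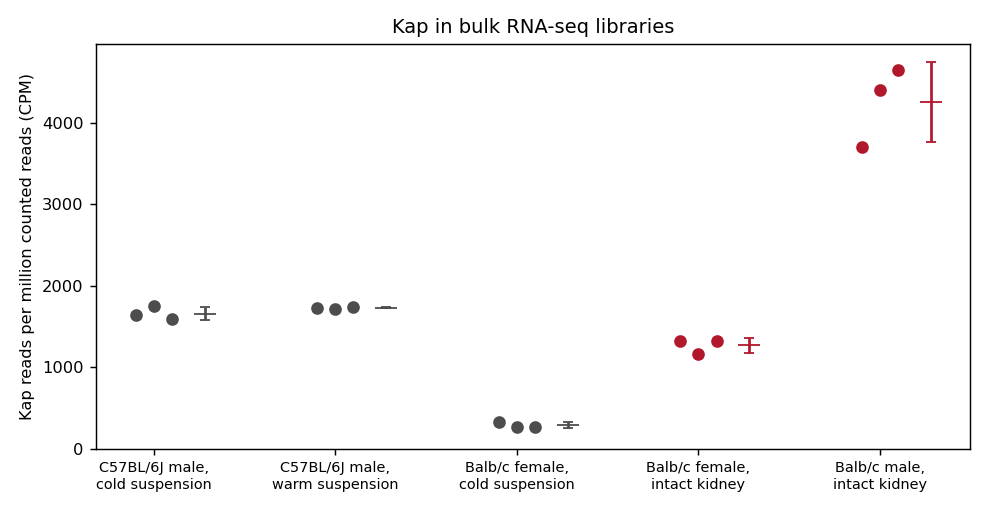
Kap in 15 bulk libraries, in CPM on a linear axis from 0, 1 point per library with the mean and SD (n = 3) beside each group. Intact male Balb/c kidney sits at 3708 to 4651 CPM, and the female cold suspension at 265 to 329 CPM sits below every other library.

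Cold suspensions of female Balb/c kidney held less Kap than intact kidney. The suspensions gave 329, 269 and 265 CPM, against 1160 to 1326 CPM in intact kidney, with no overlap. Intact kidney was 4.45 times as high (log2 fold change 2.16, SE 0.10, adjusted p = 7.2e-07), where 20% of 16538 genes were called. By TPM, Kap fell from rank 7 to between 45 and 59. The S3 markers Slc22a7 (3.42 on the log2 scale), Slco1a6 (3.20), both organic anion transporters, and Atp11a (1.75), a phospholipid flippase, were also higher in intact kidney, while the other 3 of 6 listed were not called (median 1.15). Of 6 S1 and S2 markers, 1 was higher and 3 were lower in intact kidney (median -0.34), with Slc5a2, the sodium-glucose cotransporter of the early tubule, at -0.85. Abundant proximal tubule transcripts were divided, with 4 of 20 higher, among them Guca2b (1.51), 5 lower and a median of -0.08. Of 10 endothelial markers, 8 were higher in intact kidney and none lower (median 0.50), and no thick ascending limb marker of 7 was called. Their part in the Kap difference was not tested. In bulk tissue, fewer cells of a type and less RNA per cell cannot be told apart.

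Bulk Kap did not pass the test between warm and cold C57BL/6J suspensions. Warm suspensions held 1735, 1722 and 1738 CPM and cold suspensions 1637, 1755 and 1589 CPM, and the ranges overlapped. The log2 fold change was 0.03 (95% interval -0.13 to 0.19, adjusted p = 0.84), in a comparison that called 8.68% of 14102 genes. Of the S1 and S2 markers, 5 of 6 were lower in warm suspensions, and of the S3 markers none of 6 passed the test (median -0.01). As a percent of the summed abundant list, Kap came to 5.66%, 5.85% and 5.17% in cold and 6.37%, 6.44% and 6.57% in warm suspensions, which did not overlap and were not tested. The summed list itself was 28923 to 30736 CPM in cold and 26469 to 27234 CPM in warm suspensions, and 3 of its 20 members were lower in warm suspensions and none higher (median -0.19), as were 5 of 18 proximal tubule markers with none higher (median -0.18). Of 7 thick ascending limb markers 4 were higher in warm suspensions (median 0.36), and of 10 endothelial markers 2 were lower (median -0.11).

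In 10x libraries the level was taken as Kap UMIs per 10000 UMIs, with genes of the mitochondrial genome left out. Over all barcodes it ran from 171 ± 37.5 (SD, n = 3) in warm-dissociated fresh C57BL/6J cells to 0.979 ± 0.0973 in cryopreserved cold-dissociated cells. Proximal tubule-gated barcodes of warm-dissociated fresh C57BL/6J libraries held 205, 296 and 251 per 10000. Methanol-fixed warm-dissociated libraries followed with 175, 217 and 249. Male Balb/c fresh cells held 191, 185 and 168. Methanol-fixed cold-dissociated C57BL/6J libraries held 159, 152 and 124, and the fresh cold-dissociated ones 154, 123 and 83.1. Among these 5 male conditions each overlapped the next, except Balb/c fresh cells and methanol-fixed cold C57BL/6J cells.

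All female conditions, and male nuclei, were lower. Cryopreserved female cells held 63.2, 5.76 and 44.8 per 10000 in proximal tubule-gated barcodes. Male nuclei held 41.3, 36.3 and 35.4. Female SN_FANS_1x2000g nuclei held 16.7, 10.8 and 15.2, and female fresh cells 12.9, 6.89 and 17.3, which overlapped. SN_sucrose nuclei held 5.84, 6.40 and 5.34, and SN_FANS_3x500g nuclei 3.30, 2.39 and 2.54, with no overlap between neighbors from female fresh cells downwards.

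Endothelial cells are not known to make Kap, so endothelial-gated barcodes served as the class that should lack it. The 5 highest condition means overlapped over libraries, at 34.6 per 10000 in warm methanol-fixed cells, 31.4 in SN_FANS_1x2000g nuclei, 29.99 in cold methanol-fixed cells, 29.3 in male nuclei and 29.03 in male Balb/c fresh cells. Methanol-fixed warm-dissociated libraries held 34.1, 44.2 and 25.4 per 10000 and SN_FANS_1x2000g nuclei 37.7, 24.7 and 31.8. Male nuclei held 41.6, 23.1 and 23.2 and male Balb/c fresh cells 21.5, 22.4 and 43.1, so 1 library raised each of these means. The 43.1 rested on 37 barcodes, 18 of them at the minimum of 2 markers, and was 22.3 with a gate of 1 marker more. Fresh C57BL/6J cells held 9.59, 11.8 and 14.5 after cold dissociation and 14.6, 22.4 and 10.8 after warm dissociation. Every condition from methanol-fixed warm cells down to SN_sucrose nuclei (10.0, 10.7 and 8.72) overlapped the next in order. Below that gap lay cryopreserved warm-dissociated C57BL/6J cells (1.45, 3.07 and 3.22), female fresh cells (2.21, 2.32 and 1.52), female SN_FANS_3x500g nuclei (2.12, 2.05 and 1.88), cryopreserved female cells (1.45, 0.952 and 0.785) and cryopreserved cold-dissociated C57BL/6J cells (1.14, 0.955 and 0.891).

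**Figure D2:**
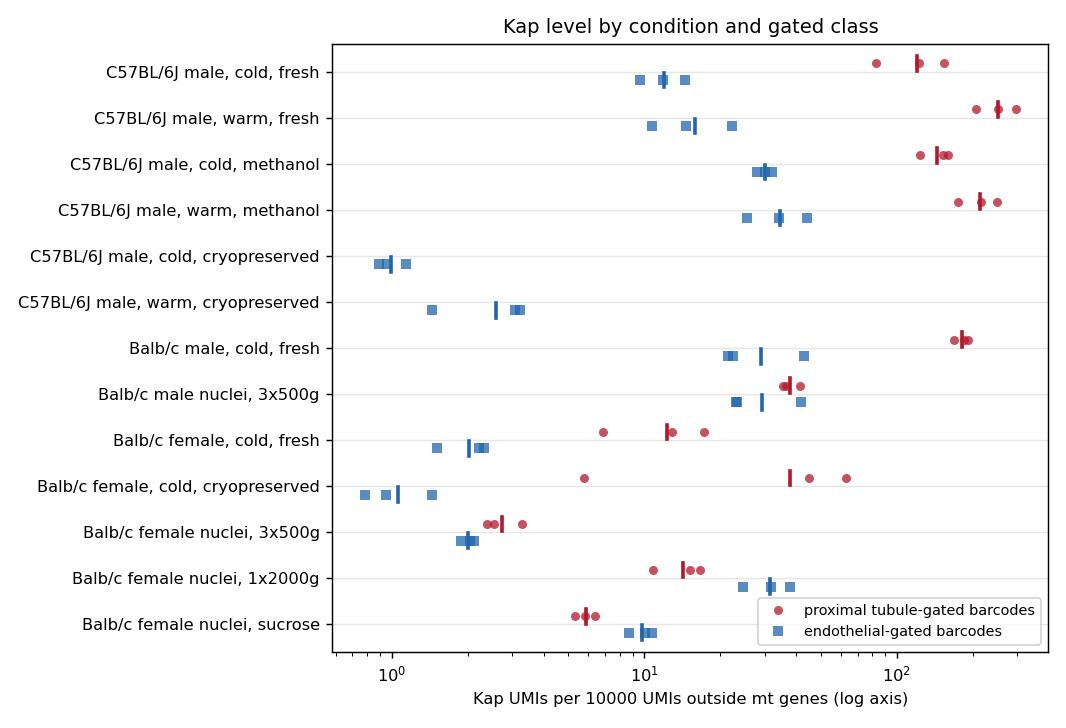
Kap UMIs per 10000 UMIs (log axis) in 13 10x conditions, 1 point per library for proximal tubule-gated barcodes (circles) and endothelial-gated barcodes (squares), with a bar at the mean. In SN_FANS_1x2000g and SN_sucrose nuclei the squares lie to the right of the circles, and the 2 cryopreserved C57BL/6J conditions have no circles because they kept at most 1 proximal tubule-gated barcode a library.

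The endothelial level as a percent of the proximal tubule level in the same library ran from 6.32% to 222% over the condition means, and cell conditions next to each other in that order overlapped. It was 6.32 ± 1.77% (SD, n = 3) in warm and 11.1 ± 5.73% in cold fresh C57BL/6J cells, and 20.97 ± 3.32% and 16.7 ± 5.62% in methanol-fixed cold and warm cells. Male nuclei reached 76.6 ± 20.9% and female SN_FANS_3x500g nuclei 74.6 ± 10.5%. It passed 100% in SN_sucrose nuclei, at 167 ± 4.40%, and in SN_FANS_1x2000g nuclei, at 222 ± 10.9%, where Kap took a larger share of the UMIs of endothelial-gated than of proximal tubule-gated nuclei in each of the 3 libraries. The median over 33 libraries was 20.4%. These percents moved with the gate. Where the gate ignored proximal tubule markers the mean was 11.7% in warm fresh C57BL/6J cells. In warm methanol-fixed ones it was 41.7%, from 24.4%, 20.2% and 80.5%, so 1 library carried it. It was 10.6% in female fresh cells (19.9% otherwise) and 2.89% in cryopreserved female cells. The latter had 6.85% otherwise, from 2.29%, 16.5% and 1.75%, a mean also carried by 1 library. Female nuclei had 49.1% by SN_FANS_3x500g, 117% by SN_sucrose and 175% by SN_FANS_1x2000g under the gate that ignored these markers. The last of these stayed above 100% under each gate tried, as did SN_sucrose nuclei. In SN_FANS_1x2000g nuclei, mean levels of the 8 classes outside the proximal tubule ran from 14.0 in intercalated-gated to 34.2 in myeloid-gated nuclei, and 99.3% of endothelial-gated and 98.8% of proximal tubule-gated nuclei had a Kap UMI. Thinned to 500 UMIs, to equalize median depths of 1693 and 4790 UMIs, these shares were 78.9% and 47.8%.

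Kap was also set beside 20 other abundant proximal tubule transcripts, inside and outside the proximal tubule gate. Proximal tubule-gated barcodes hold RNA of their own beside any free RNA, so these shares do not measure ambient RNA, and its part was not tested. In cold fresh C57BL/6J cells Kap UMIs came to 14.5% of those of the list in proximal tubule-gated barcodes and to 15.9% in the barcodes gated as other classes. In male Balb/c fresh cells these were 25% and 22.2%. After warm dissociation the share was lower outside the proximal tubule, at 21.6% against 30.2% in fresh and 15.7% against 22.96% in methanol-fixed cells, and in cold methanol-fixed cells it was 12.3% against 14.6%. In nuclei the share was higher outside the proximal tubule. Kap came to 21.4% of the list in proximal tubule-gated and 49.8% in other male nuclei, to 2.56% and 11.4% in female SN_FANS_3x500g nuclei, to 11.8% and 65.6% in SN_FANS_1x2000g nuclei and to 5.07% and 43.2% in SN_sucrose nuclei. In female fresh cells these were 1.97% and 7.41%. In cryopreserved female cells the proximal tubule share was higher in 2 of 3 libraries. The values were 11.9% against 6.48%, 1.04% against 7.29% and 8.69% against 4.94%. Of the proximal tubule-gated Kap UMIs there, 1 barcode a library held 1149 of 1713, 157 of 231 and 377 of 784. These libraries listed only 19, 19 and 18 of the 20 other transcripts. Nuclei were counted over introns and exons and cells over exons, so the preparation and the counting cannot be told apart in these shares.

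A proximal tubule-gated barcode was assigned to a segment where at least 2 of its listed markers were detected. Their number also had to be at least 2 times that of the other segment. Kap was higher in barcodes assigned to S3 than in those assigned to S1 and S2. In cold fresh C57BL/6J cells, S3 barcodes held 257 ± 35.0 per 10000 and S1 and S2 barcodes 54.4 ± 10.3 (SD, n = 3), a ratio of 4.76 ± 0.319. The ratio was 5.22 ± 0.865 in warm fresh cells, 4.82 ± 0.435 and 3.47 ± 0.953 in methanol-fixed cold and warm cells, and 3.51 ± 0.474 in male Balb/c fresh cells. It was smaller in male nuclei, at 2.09 ± 0.235. In female SN_FANS_3x500g nuclei, where S1 and S2 nuclei held 0.971 ± 0.135 and S3 nuclei 14.5 ± 1.11, it reached 15.1 ± 1.87. It was 4.84 ± 0.0835 in SN_sucrose and 3.23 ± 0.364 in SN_FANS_1x2000g nuclei, whose S1 and S2 nuclei held more Kap, 4.08 ± 0.458 and 11.6 ± 2.44. Kap in S3 nuclei of the 3 female protocols was 14.5, 19.7 and 37.3. Slc7a13 and Slc22a30, among the S3 markers, are themselves male-biased, so male and female S3 barcodes were not chosen on the same transcripts.

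**Figure D3:**
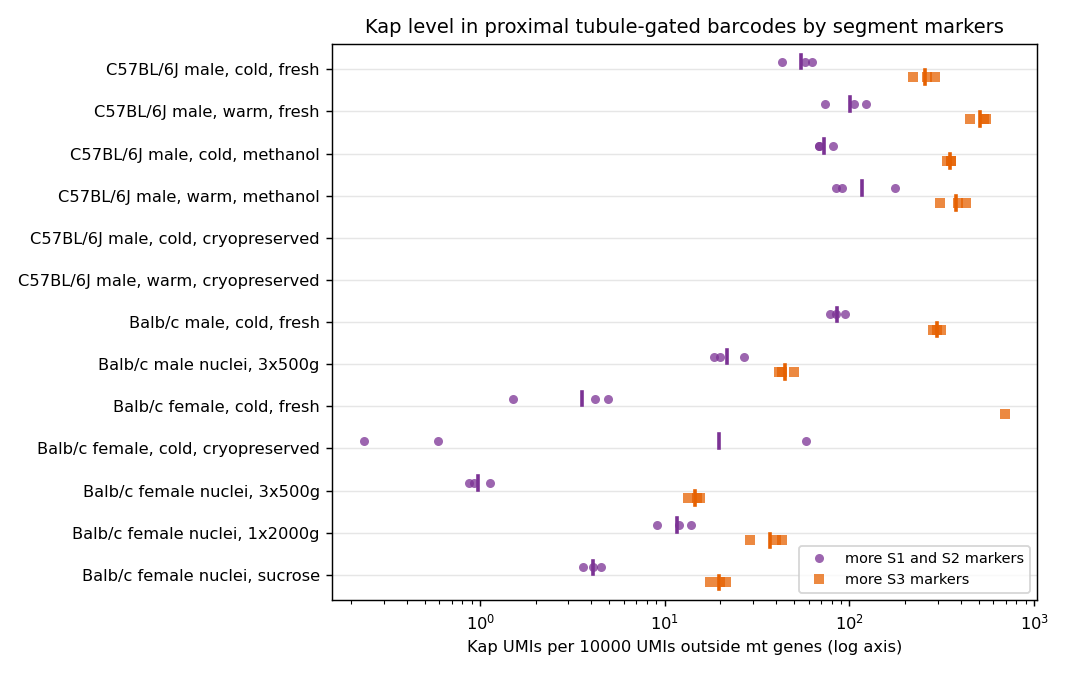
Kap UMIs per 10000 UMIs (log axis) in proximal tubule-gated barcodes assigned by segment markers to S1 and S2 (circles) or to S3 (squares). Each library with at least 10 such barcodes gave 1 point, and a bar marks the mean. The squares lie to the right of the circles in each condition that has both, and female fresh cells have 1 square, at 698.

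Most Kap UMIs of female fresh cells lay in few barcodes. Of all Kap UMIs in a library, 81.1%, 88.0% and 84.1% lay in the 1% of barcodes with the most Kap UMIs, and the 11, 13 and 14 highest barcodes held at least as many as all other barcodes together. The highest single barcodes held 926, 1253 and 1166 Kap UMIs. The other 99% of barcodes together held 2.16, 1.27 and 2.48 per 10000. In contrast, the highest 1% held 14.0 ± 1.28% in cold fresh C57BL/6J cells and 11.6 ± 1.06% in male Balb/c fresh cells. Female proximal tubule-gated barcodes had a Kap UMI in 25.6% of cases, at a median depth of 3210 UMIs, and endothelial-gated ones in 25.3%, at 1811 UMIs. Thinned to 500 UMIs these shares were 8.69% and 9.75%. Female gated barcodes assigned to S1 and S2 held 4.21, 1.50 and 4.93 Kap UMIs per 10000, against 2.21, 2.32 and 1.52 in endothelial-gated barcodes of the same libraries.

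Some S3 markers were far more frequent in the female barcodes with the most Kap. Of 172 such barcodes in 3 libraries, 62 were gated as proximal tubule, 99 were ungated and 11 were of other classes. Slco1a6 was detected in 58.2% of them (51.1 to 71.1% over libraries) and in 0.874% of the remaining barcodes, Slc22a7 in 57% and 0.758%, and Atp11a in 31.5% and 5.58%. The other S3 markers listed did not show this, with Slc22a30 in 2.54% and 0.894% and Cyp7b1 in 0% and 0.751%, and Slc7a13 was not listed. Of the S1 and S2 markers, Slc5a2 was detected in 3.09% of the high barcodes and 22% of the rest, Slc5a12 in 2.73% and 16.4%, and Slc6a19 in 5.40% and 19.2%. Slc22a6 (36.1% and 16.3%), Slc4a4 (44.9% and 36.9%) and Slc2a2 (18.7% and 15.6%) were more frequent in the high barcodes. Median depth was 2200 to 2861 UMIs in the high barcodes and 1530 to 1996 in the rest. The high barcodes were picked by Kap UMIs alone. In females 7, 9 and 16 gated barcodes of a library were assigned to S3, and these held 1065, 782 and 698 Kap UMIs per 10000. Ungated female barcodes held 21.6 per 10000, above the 12.4 of proximal tubule-gated ones.

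**Figure D4:**
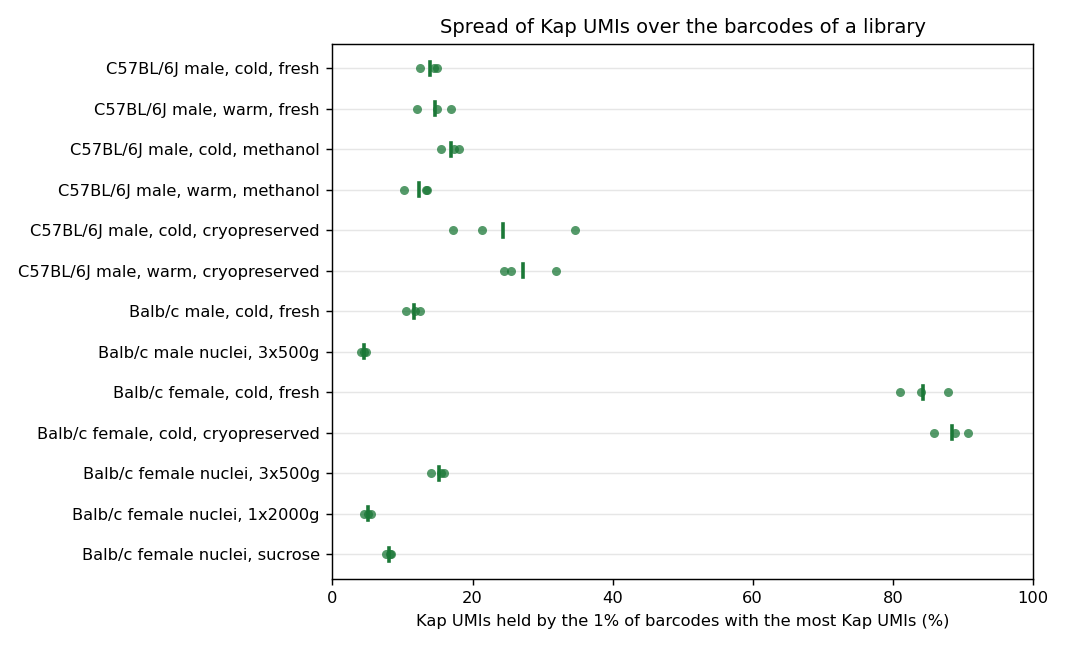
Share of the Kap UMIs of a library (percent, linear axis) held by the 1% of its barcodes with the most Kap UMIs, 1 point per library and a bar at the mean of 3. Female fresh and cryopreserved cells sit above 80%, male fresh and methanol-fixed cells between 10.2% and 18.1%, and nuclei between 4.14% and 15.9%.

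Kap was higher after warm than after cold dissociation in proximal tubule-gated 10x sums, but did not pass the test in bulk libraries of the same suspensions. Those bulk libraries, which took in all cell types, held means of 1732 CPM warm and 1660 CPM cold. The 10x libraries over all barcodes held 142, 213 and 159 per 10000 warm and 103, 73.5 and 54.7 cold. These did not overlap either and were not tested. The reason for this gap between 10x and bulk was not tested. Proximal tubule-gated sums of warm-dissociated 10x libraries held 205 to 296 per 10000 and cold-dissociated ones 83.1 to 154, with no overlap. The log2 fold change was 1.14 (SE 0.19, adjusted p = 0.0035), where 9.18% of 9121 genes were called. Of the S3 markers 1 of 5 tested rose, Slc7a13 (1.00), and none fell (median -0.01). Of the S1 and S2 markers 1 of 6 rose, the organic anion transporter Slc22a6 (0.59), and 3 fell, among them the bicarbonate cotransporter Slc4a4 (-0.67), with a median of -0.35. Of the abundant list 3 of 20 rose, among them the cytochrome P450 Cyp4b1 (0.63), and none fell (median 0.27, against 0.00 over all genes). Of the androgen list 2 of 10 tested rose, Cyp4b1 and the hydrolase Nudt19 (0.60). In endothelial-gated sums Kap did not pass the test (log2 fold change 0.44, 95% interval -0.04 to 0.92, adjusted p = 0.42, 1.97% of 4020 genes called). The difference between the endothelial and the proximal tubule effect was -0.79 (adjusted p = 0.11) and did not pass either.

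After methanol fixation Kap was higher in endothelial-gated sums, while in proximal tubule-gated sums the call depended on the fit. In cold-dissociated suspensions endothelial-gated barcodes held 28.02, 31.9 and 30 per 10000 after fixation and 9.59, 11.8 and 14.5 when fresh. The log2 fold change was 1.23 (SE 0.19, adjusted p = 0.00021), where 24.6% of 2754 genes were called. Of the abundant list 15 of 20 rose there (median 1.23), led by the plasma glutathione peroxidase Gpx3 (1.94), the trypsin inhibitor Spink1 (1.92) and Guca2b (1.89), and 5 of 10 endothelial markers fell. In proximal tubule-gated sums the cold change was 0.33 (SE 0.16, adjusted p = 0.15, 20% of 8459 genes called). With the suspension as a block it was 0.37 (adjusted p = 0.00048), and without fresh replicate 1 it was 0.55 (adjusted p = 0.0077), both past the test. There 5 of 20 abundant transcripts rose and 2 fell (median 0.18). In the same sums all 4 endothelial markers tested, of 10 listed, rose (median 1.48), as did 4 of 6 thick ascending limb markers (median 1.47). Endothelial markers scarce in fresh libraries could enter the test through the fixed ones alone, so the filter partly set that count. The summed endothelial-marker level there was 0.591 to 1.02 per 10000 after fixation and 0.301 to 0.375 when fresh, and its part in the Kap change was not tested.

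In warm-dissociated suspensions Kap rose by 0.99 in endothelial-gated sums after methanol fixation (SE 0.25, adjusted p = 0.017, 13.3% of 2036 genes called). These sums rested on 11 to 72 fixed and 92 to 207 fresh barcodes a library. The call was lost without fixed replicate 2 (0.64, adjusted p = 0.17), fresh replicate 1 (0.85, adjusted p = 0.067) or fresh replicate 3 (0.70, adjusted p = 0.097). It was also lost by DESeq2 (0.88, adjusted p = 0.089), with a gate at 1.5 times the next share (0.44, adjusted p = 0.38) and with a gate that ignored proximal tubule markers (1.17, adjusted p = 0.087). Of the abundant list, 9 of 18 tested rose (median 1.15), while 3 of 10 endothelial markers fell and 0 rose (median -0.64). In proximal tubule-gated sums the change was -0.24 (SE 0.13, adjusted p = 0.32, 8.24% of 7766 genes called), and -0.23 with the suspension as a block, which passed (adjusted p = 0.00072). Of 6 thick ascending limb markers 3 rose there (median 0.98). The endothelial effect exceeded the proximal tubule effect by 0.87 in cold (adjusted p = 0.011, and 0.81 with adjusted p = 0.053 without the filter on low counts) and by 1.31 in warm suspensions (adjusted p = 1.6e-06). In a fit without the suspension block, the proximal tubule effect did not differ between warm and cold suspensions past the test (-0.54, adjusted p = 0.68). Fitted alone with the block, the cold and warm effects were each called, with opposite signs. Their difference was not tested with the block.

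In cryopreserved C57BL/6J cells Kap was lower in endothelial-gated sums, as were most of the other abundant proximal tubule transcripts tested. Cold-dissociated libraries went from 9.59, 11.8 and 14.5 when fresh to 1.14, 0.955 and 0.891 per 10000, and the log2 fold change was -3.55 (SE 0.22, adjusted p = 6.3e-09, 6.1% of 4622 genes called). Of the list 18 of 19 tested fell (median -3.68), among them the mitochondrial acyl-CoA synthetase Acsm2 (-8.89) and the gluconeogenic enzyme Pck1 (-6.95). In warm-dissociated libraries Kap fell by 2.42 (SE 0.25, adjusted p = 4.0e-06, 8.41% of 3401 genes called), and 16 of 18 of the list fell (median -2.60). No endothelial marker of 10 passed the test in cold and 1 fell in warm libraries. Proximal tubule-gated barcodes were lost at the same time, from 837 to 2313 a library when fresh to at most 1. The warm and cold effects did not differ past the test (1.12, adjusted p = 0.44), but did without the filter on low counts (1.09, adjusted p = 0.013). Neither of these fits held the suspension block.

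In proximal tubule-gated sums of cryopreserved female cells, a class too sparse to test in cryopreserved C57BL/6J cells, Kap rose by 1.37 (SE 0.43, adjusted p = 0.029, 18.6% of 9388 genes called), while 15 of 18 tested genes of the abundant list fell and none rose (median -0.60), with myo-inositol oxygenase Miox at -1.33. The proximal tubule-gated barcodes were 80, 112 and 53 a library, against 1185 to 2335 when fresh. A single barcode held 1149 of the 1713 Kap UMIs in replicate 1, 157 of 231 in replicate 2 and 377 of 784 in replicate 3. Without that barcode the levels were 21.4, 1.86 and 24.0 per 10000, against 11.02, 5.78 and 15.3 when the highest barcode of each fresh library was left out too, and these ranges overlapped. The call was lost without cryopreserved replicate 1 (0.68, adjusted p = 0.33), cryopreserved replicate 3 (1.20, adjusted p = 0.15) or fresh replicate 2 (1.18, adjusted p = 0.15), and by DESeq2 (1.40, adjusted p = 0.33). Of 6 thick ascending limb markers tested in these sums, 1 rose and 3 fell (median -1.36).

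In endothelial-gated sums of female cells Kap fell by 0.94 after cryopreservation (SE 0.21, adjusted p = 0.022, 1.49% of 7229 genes called), from 2.21, 2.32 and 1.52 to 1.45, 0.952 and 0.785 per 10000. The call was lost without cryopreserved replicate 2 (-0.85, adjusted p = 0.15) or 3 (-0.75, adjusted p = 0.070), or fresh replicate 1 (-0.85, adjusted p = 0.11) or 2 (-0.81, adjusted p = 0.12). Of the abundant list 15 of 17 tested fell and none rose, with a median of -2.12 over the 17. Spink1 fell by 2.69, Pck1 by 2.65 and the gluconeogenic Fbp1 by 2.57. The endothelial effect on Kap lay 2.19 below that in the proximal tubule (adjusted p = 3.6e-06).

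The 3 nuclei protocols of female kidney differed in Kap in each comparison and in both classes. In endothelial-gated nuclei SN_FANS_3x500g libraries held 2.12, 2.05 and 1.88 per 10000, SN_sucrose libraries 10.0, 10.7 and 8.72 and SN_FANS_1x2000g libraries 37.7, 24.7 and 31.8, with no overlap. SN_FANS_1x2000g was 15.9 times SN_FANS_3x500g (log2 fold change 3.99, SE 0.13, adjusted p = 7.5e-15, 17.2% of 10239 genes called). SN_sucrose was 4.90 times SN_FANS_3x500g (2.29, SE 0.11, adjusted p = 2.6e-11, 15.1% of 10265 genes called). SN_FANS_1x2000g was 3.21 times SN_sucrose (1.68, SE 0.13, adjusted p = 2.85e-07, 4.71% of 10801 genes called).

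The other abundant proximal tubule transcripts were tested in the same endothelial-gated nuclei. Between SN_FANS_1x2000g and SN_FANS_3x500g, 17 of 18 tested rose with a median of 1.65, and the largest were Guca2b (2.73), the aminoacylase Acy3 (2.59) and Miox (2.36). Between SN_sucrose and SN_FANS_3x500g 6 of 18 rose (median 0.36), led by Guca2b (1.50). Between SN_FANS_1x2000g and SN_sucrose 17 of 18 rose (median 1.18), among them Ttc36 (1.88), which exceeded the 1.68 of Kap. The summed level of the 18 proximal tubule markers in endothelial-gated nuclei was 10.6 to 11.7 per 10000 in SN_FANS_3x500g, 9.49 to 10.1 in SN_sucrose and 13.2 to 14.6 in SN_FANS_1x2000g libraries, and its part in the Kap differences was not tested.

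In proximal tubule-gated nuclei the same order held. Kap was 5.24 times as high in SN_FANS_1x2000g as in SN_FANS_3x500g (log2 fold change 2.39, SE 0.20, adjusted p = 0.00021, 19.4% of 13804 genes called), 2.16 times as high in SN_sucrose as in SN_FANS_3x500g (1.11, SE 0.14, adjusted p = 0.00079, 31.8% of 13678 genes) and 2.39 times as high in SN_FANS_1x2000g as in SN_sucrose (1.26, SE 0.16, adjusted p = 0.0035, 4.67% of 13826 genes). In these 3 comparisons 4, 3 and 1 of 20 abundant transcripts rose and 0, 1 and 1 fell, beside the 19.4%, 31.8% and 4.67% of all genes called in either direction. Of 9 endothelial markers tested in the same sums, 4 rose for SN_FANS_1x2000g against SN_FANS_3x500g (median 0.48), 6 for SN_sucrose against SN_FANS_3x500g (median 0.98) and 0 for SN_FANS_1x2000g against SN_sucrose, and none fell. The summed level of the 10 endothelial markers in proximal tubule-gated nuclei was 0.524 to 0.592 per 10000 in SN_FANS_3x500g, 0.851 to 0.956 in SN_sucrose and 0.672 to 0.977 in SN_FANS_1x2000g. Their part in the Kap difference was not tested. The endothelial effect exceeded the proximal tubule effect by 1.53 for SN_FANS_1x2000g against SN_FANS_3x500g (adjusted p = 4.6e-09) and by 1.13 for SN_sucrose against SN_FANS_3x500g (adjusted p = 4.9e-06). For SN_FANS_1x2000g against SN_sucrose the excess of 0.42 did not pass (adjusted p = 0.058), but did without the filter on low counts (0.43, adjusted p = 0.020). The 3 comparisons share libraries.

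Nuclei by SN_FANS_3x500g held less Kap than fresh cells in the proximal tubule in both sexes. Nuclei were counted over introns and exons and cells over exons, so preparation and counting cannot be told apart in either class. In males, proximal tubule-gated nuclei held 41.3, 36.3 and 35.4 and cells 191, 185 and 168 per 10000. The log2 fold change was -2.74 (SE 0.27, adjusted p = 7.2e-08), in a comparison that called 75.3% of 11516 genes and whose median over all genes was 0.60. Of the abundant list 17 of 20 fell and 1 rose (median -2.20), with Spink1 at -4.46, and of 11 androgen-responsive genes 7 fell and 2 rose. S3 markers went the other way, with 6 of 6 higher in nuclei (median 1.63), while of 6 S1 and S2 markers 1 was higher and 4 were lower (median -0.52). In females Kap fell by 2.92 (SE 0.26, adjusted p = 4.1e-07, 85.8% of 11981 genes called), and 18 of 20 of the abundant list fell (median -3.03). Of 5 S3 markers tested 4 were higher in female nuclei and 0 lower (median 2.41), and of 6 S1 and S2 markers 2 were higher and 4 lower (median -0.61). In the female cells 5 of 1226, 5 of 2335 and 7 of 1185 gated barcodes held at least as many Kap UMIs as all other gated barcodes together, against 113 of 1960, 85 of 1694 and 93 of 1917 in the nuclei. The male and female effects did not differ past the test (0.35, adjusted p = 0.45), with a change of sign under another normalization (-0.15). In proximal tubule-gated sums the 10 endothelial markers together held 1.67 to 1.83 per 10000 in male nuclei and 0.184 to 0.237 in male cells. In females they held 0.524 to 0.592 in nuclei and 0.116 to 0.146 in cells. Of those tested, 6 of 6 were higher in male nuclei (median 3.29), and in females 5 of 7 were higher and 1 lower (median 1.84). Markers this scarce in cells could enter the test through the nuclei alone, so the filter partly set these counts.

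Endothelial-gated sums did not show this fall. Male nuclei held 41.6, 23.1 and 23.2 and male cells 21.5, 22.4 and 43.1 per 10000, ranges that overlapped. The fitted log2 fold change was 1.13 (SE 0.29, adjusted p = 0.0015), in a comparison of 892 genes that called 76.7% of them. Without the filter on low counts it was 0.38 (adjusted p = 0.62), with endothelial barcodes gated regardless of proximal tubule markers 0.26 (adjusted p = 0.45), and without cell replicate 3, which had the lowest median depth, 0.56 (adjusted p = 0.068). Female nuclei held 2.12, 2.05 and 1.88 and female cells 2.21, 2.32 and 1.52, with a log2 fold change of -0.20 (95% interval -0.50 to 0.10, adjusted p = 0.21, 81.1% of 8306 genes called). It passed without fresh cell replicate 3 (-0.40, adjusted p = 0.014). Of the abundant list 14 of 17 tested fell and 1 rose in these female sums (median -2.06), and in males 3 of 10 tested rose and 2 fell (median -0.09). Summed proximal tubule markers held 22.8 to 25.6 per 10000 in male nuclei and 5.48 to 9.68 in male cells. In females they held 10.6 to 11.7 and 2.79 to 5.34. Of 10 endothelial markers 7 were higher and 1 lower in male nuclei (median 1.09), and 2 higher and 5 lower in female nuclei (median -0.58). The part of these shifts in the Kap values was not tested. In a joint fit of both classes, scaled together over 7052 genes in males and 12149 in females, the endothelial effect exceeded the proximal tubule effect by 2.18 in males (adjusted p = 1.8e-06) and by 2.31 in females (adjusted p = 3.4e-08). These values are not the gap between the separately scaled effects above, and under RLE size factors they were 2.51 and 2.64.

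Cold fresh cells of male C57BL/6J and male Balb/c mice were compared in both classes. In proximal tubule-gated sums Kap was 154, 123 and 83.1 in C57BL/6J and 191, 185 and 168 in Balb/c, with a log2 fold change of -0.47 that missed the test (SE 0.17, adjusted p = 0.081, 9.76% of 8196 genes called) and passed it without C57BL/6J replicate 1 (-0.69, adjusted p = 0.0022). Of the androgen list 4 of 10 tested were lower in C57BL/6J and 1 was higher, with beta-glucuronidase Gusb at -2.75, Cyp4a12a at -2.54 and Slco1a1 at -1.90. The abundant list went the other way, with 6 of 20 higher in C57BL/6J and 2 lower (median 0.29). Of 18 proximal tubule markers 4 were higher and 2 lower (median 0.10). Of 5 S3 markers tested 2 were lower and 0 higher (median -0.46), and of 6 S1 and S2 markers 1 was higher and 0 lower (median 0.18). In endothelial-gated sums Kap was lower in C57BL/6J by 0.99 on the log2 scale (log2 fold change -0.99, SE 0.25, adjusted p = 0.019, 4.35% of 2254 genes called). That call was lost without Balb/c replicate 1 (-1.07, adjusted p = 0.068), 2 (-1.04, adjusted p = 0.055) or 3 (-0.76, adjusted p = 0.070), without the filter on low counts (-0.67, adjusted p = 0.46) and with a gate of 1 marker more (-0.72, adjusted p = 0.12).

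**Figure D5:**
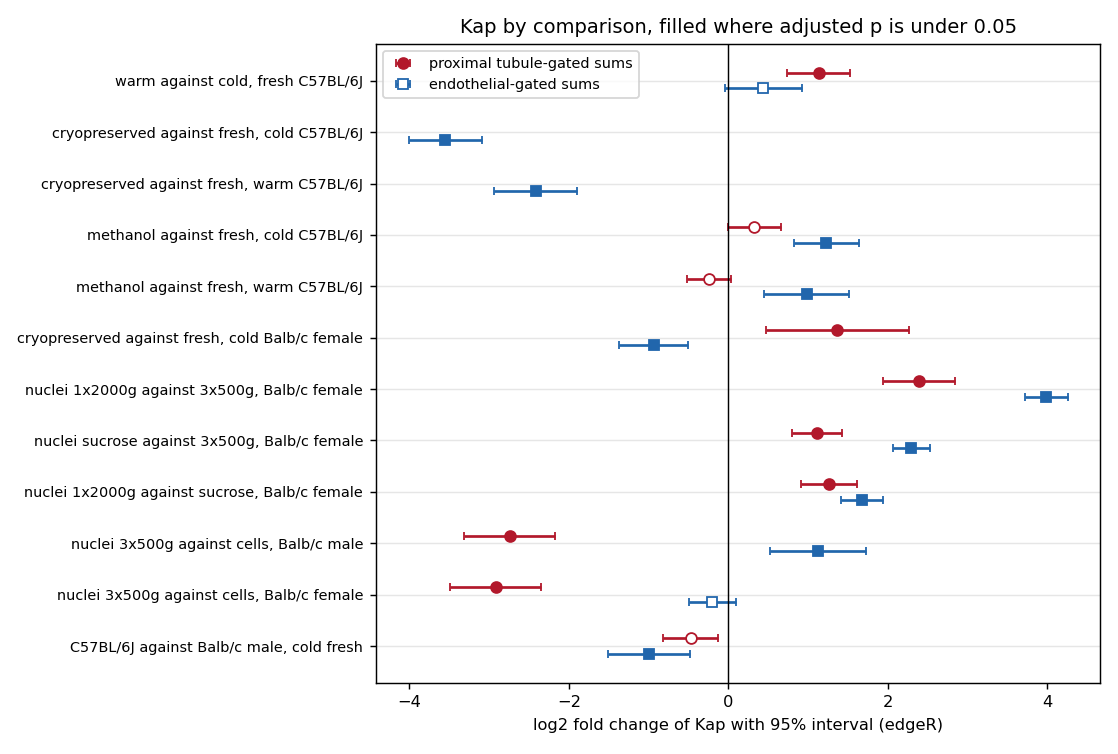
Log2 fold change of Kap with its 95% interval (edgeR quasi-likelihood test) in 12 comparisons, for proximal tubule-gated sums (circles) and endothelial-gated sums (squares), filled where the adjusted p was under 0.05. Circles and squares lie on opposite sides of 0 for warm methanol-fixed cells (-0.24 and 0.99), for cryopreserved female cells (1.37 and -0.94) and for male nuclei against cells (-2.74 and 1.13), and the largest value is 3.99.

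Over the mean levels of the 11 conditions with proximal tubule-gated barcodes, the genes whose order was most like that of Kap, among 1706 with a mean of at least 1 per 10000, were Msrb1 (Spearman rho 0.95), Nudt19 (0.94), Reep5 (0.94), Amacr (0.93) and Ephx2 (0.93). Msrb1 is a methionine sulfoxide reductase, Amacr a racemase of fatty acid breakdown and Ephx2 an epoxide hydrolase. Over the 5 bulk conditions, among 2354 genes with a mean of at least 100 CPM, the smallest distances between centered log2 CPM were those of Lrp1 (0.50), the S3 marker Atp11a (0.61), B4galt5 (0.92), the fatty acid translocase Cd36 (0.94) and Slc5a8 (1.05). The conditions share batch, chemistry and depth with the pattern, so these values describe likeness only.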

How the data were processed

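The authors aligned 10x reads with Cell Ranger 2.1.1 to mm10, called cells with EmptyDrops, filtered barcodes on genes, mitochondrial share and UMIs, and deposited raw UMI counts for each gene in each barcode (exons for cells, introns and exons for nuclei). For bulk libraries the authors trimmed reads with Trim Galore, removed ribosomal reads with TagDust2, aligned with STAR 2.6.1a to GRCm38 and deposited featureCounts read counts. Files differ in the genes they list, and each fit used genes listed in all its libraries. Files of male Balb/c cells and of nuclei list no mitochondrial genes, so these were left out of 10x sums.

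Kap, the markers and the lists were chosen with earlier results of these data known. A barcode was gated to the class with the largest share of its markers detected (at least 2, or 3 for the proximal tubule, and 2 times the next share). No doublet caller was run. Barcodes whose largest share was under 2 times the next stayed ungated, but others with some markers of a second class stayed gated. Endothelial-gated SN_FANS_1x2000g nuclei had a median of 2 of 18 proximal tubule markers, so doublets and mixed barcodes can remain in a class. Counts were summed per library and class where at least 2 libraries a group held 10 gated barcodes, and compared by quasi-likelihood in edgeR 4.0.16 (R 4.3.3, TMM, filterByExpr, Benjamini-Hochberg adjustment over all genes, 2 groups a fit). A gene was called at an adjusted p under 0.05. Differences between effects were tested as interaction terms in a joint fit with its own filter and TMM scaling, added after the data were seen. Between classes the library was a block, and between comparisons no block was fitted. Alternatives were DESeq2 1.42.0, RLE size factors, no filter, other gates, mitochondrial genes kept or left out, and each library left out. The test was checked on simulated data. Named list genes are at most the 3 called members with the largest change in the abundant or androgen list per comparison. Segment markers were named after their values were seen. The values of 1 list member are not reported here. Segment, class and likeness values were not tested.

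Barcode names show that stored C57BL/6J libraries came from the same numbered suspensions as the fresh ones (correlation of same-numbered deviations 0.24, 0.22 and 0.26 for cold methanol, 0.11, 0.20 and 0.089 for warm methanol, 0.053, 0.042 and 0.083 for cold and 0.022, 0.021 and -0.017 for warm cryopreservation), so storage comparisons were also fitted with a suspension block. Counting intervals and depths cover counting error only. CPM and TPM were computed from the deposited counts, with gene lengths from GENCODE. Promoter sequence is from RefSeq.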

Additional observations from a re-analysis of the deposited data

Results flagged for a closer look

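For 7 comparisons the effect on Kap differed between endothelial-gated and proximal tubule-gated sums of the same libraries, by a test of the difference itself in a joint fit of both classes, whose value need not equal the gap between effects fitted separately. Kap was chosen from its levels in these classes and the tests were added after the data were seen, so the differences are no independent support. The endothelial effect was higher by 0.87 on the log2 scale for methanol-fixed against fresh cold-dissociated C57BL/6J cells (adjusted p = 0.011) and by 1.31 for warm-dissociated ones (adjusted p = 1.6e-06). It was lower by 2.19 for cryopreserved against fresh female cells (difference -2.19, adjusted p = 3.6e-06). It was higher by 1.53 for SN_FANS_1x2000g against SN_FANS_3x500g nuclei (adjusted p = 4.6e-09), by 1.13 for SN_sucrose against SN_FANS_3x500g nuclei (adjusted p = 4.9e-06), and by 2.18 in males (adjusted p = 1.8e-06) and 2.31 in females (adjusted p = 3.4e-08) for nuclei against cells. The cold methanol difference lost its call without the filter on low counts (0.81, adjusted p = 0.053). The warm methanol endothelial effect fitted alone lost its call by DESeq2 (0.88), with a gate at 1.5 times the next share (0.44), with a gate that ignored proximal tubule markers (1.17), and without fixed replicate 2 (0.64), fresh replicate 1 (0.85) or fresh replicate 3 (0.70). In males the endothelial effect fitted alone lost its call without the filter on low counts (0.38) and with a gate that ignored proximal tubule markers (0.26). The female cryopreserved value rests on proximal tubule-gated sums in which 1 barcode a library held 1149 of 1713, 157 of 231 and 377 of 784 Kap UMIs.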

How the results depend on the processing

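Over 25 tested comparisons and the median endothelial percent of the proximal tubule level, 328 pairs of a result and an alternative were computed. Of these, 301 were counted as the same, 22 lost the call, 5 gained it and none changed direction. For a test, the same meant keeping the direction and the side of the threshold. For the median of 20.4% it meant a move under the SD over libraries, 71.0 percentage points, a limit too wide to mark a change. DESeq2 ended the call for warm methanol in endothelial-gated sums (0.88) and for female cryopreservation in proximal tubule-gated sums (1.40). Without the filter on low counts the call ended in endothelial-gated sums for male nuclei against cells (0.38) and for C57BL/6J against Balb/c (-0.67). A gate with 1 marker more ended the last of these (-0.72), a gate at 1.5 times the next share ended warm methanol (0.44), and a gate that ignored proximal tubule markers ended warm methanol (1.17) and male nuclei against cells (0.26), all in endothelial-gated sums. With the replicate block, methanol in proximal tubule-gated sums gained a call in cold (0.37) and warm (-0.23) suspensions, and no other call changed. Over all genes the block raised the number called from 1694 to 2643 and from 640 to 1048 in these comparisons, and from 282 to 498 for cold cryopreservation in endothelial-gated sums. For warm against cold, where libraries share only a number (correlations 0.18, 0.16 and -0.01), the block gave 1.17 and 0.40. No paired analysis was possible for the other groups because neither their labels nor barcode names give a shared number. The paper describes the female fresh and cryopreserved cells as suspension aliquots. Which fresh and stored libraries came from 1 suspension is not given, so any such pairing was left out of the female storage fits. Under RLE size factors the male minus female difference of nuclei against cells turned to -0.15 in proximal tubule-gated and -0.13 in endothelial-gated sums, and neither value passed the test. Without the filter the excess of the endothelial over the proximal tubule effect of cold methanol lost its call (0.81, adjusted p = 0.053), while that of SN_FANS_1x2000g against SN_sucrose (0.43, adjusted p = 0.020) and the warm minus cold difference of cryopreservation (1.09, adjusted p = 0.013) gained one. With 1 library left out, proximal tubule-gated values ran from 0.11 to 0.55 for cold methanol, 0.68 to 1.88 for female cryopreservation and -0.69 to -0.26 for C57BL/6J against Balb/c. Endothelial-gated values ran from 0.64 to 1.30 for warm methanol, -1.23 to -0.75 for female cryopreservation, 0.56 to 1.23 for male and -0.40 to -0.12 for female nuclei against cells, and -1.18 to -0.76 for C57BL/6J against Balb/c. Fewer samples entered those fits, and otherwise the cause was not tested. C57BL/6J proximal tubule-gated sums could not be tested after cryopreservation, since at most 1 barcode a library was gated. Warm methanol rested on endothelial-gated sums of 11 to 72 barcodes.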
